A study of Mus musculus with 98 samples.

Results

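Genes of the 2-cell stage other than the Zscan4 cluster were followed through 86 libraries of mouse totipotent blastomere-like cells (TBLC) and the cells made from them. The members were the single genes Zfp352, Spz1 and Tmem92 and the summed counts of all symbols beginning with Usp17l (5 copies), Tcstv (2 copies) and Tdpoz (10 copies), which together are 20 of the 21812 gene symbols in each count table. TBLC were kept in 2MYCP medium. The 3-day SLM cultures made from them are called diffTBLC, and an 8-hour SLM culture is called TBLC_PlaB-, with TBLC_Ctrl in 2MYCP as its control. From the 3-day SLM cultures, CD140+ cells (PrE-T) and CD140- cells (EPI-T) were collected. Other diffTBLC carried a control siRNA (siNC, siNC1 or siNC2) or an siRNA against Mettl3, Virma or Igf2bp3. Libraries of 4 courses were taken at 0, 1, 2 and 3 h of actinomycin D, an inhibitor of transcription, and 2 further experiments captured RNA from diffTBLC with antibodies to Igf2bp3 or Ythdf2. A separate TBLC culture is labelled TBLC2. Each of the 43 groups had 2 libraries, with no statement that they came from separate cultures, so p-values measure the spread between libraries, which may be technical. The genotype and parental line of the cells are not given in the labels.

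In the mouse embryo these genes belong to the burst of transcription around the 2-cell stage, when the embryo's own genome is switched on, and a small fluctuating fraction of cultured embryonic stem cells re-expresses them as a group. The transcription factor Dux switches many of them on directly, Dppa2 and Dppa4 act upstream of Dux, and silencing factors such as the PRC1.6 subunit Mga and the histone methyltransferase Ehmt2 hold the programme down. Zfp352 encodes a zinc finger protein, Spz1 a leucine zipper transcription factor known from the testis, and Tmem92 a transmembrane protein. Usp17l copies encode deubiquitinating enzymes, Tdpoz copies encode proteins with a TRAF and a POZ domain, and Tcstv copies belong to a variable gene group named for the 2-cell stage. TBLC are embryonic stem cell derivatives described as resembling 2-cell blastomeres. Virma and Mettl3 belong to the complex that writes N6-methyladenosine (m6A) into RNA, and Igf2bp3 and Ythdf2 bind methylated RNA.

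The promoters of Zfp352 and of some Tdpoz copies have a short stretch in common, so they are shown first. RefSeq promoter windows (GRCm38.p6) were matched by symbol for 12 of the 20 member genes, in 13 windows, and the 250 bases before each start were read. The word TAATCC, which Otx and Obox homeodomain proteins are known to bind, was searched on both strands (TAATCC or GGATTA) and is in capitals below. It was chosen after the sequences were seen.
Zfp352, chr4:90218570-90218819, plus strand: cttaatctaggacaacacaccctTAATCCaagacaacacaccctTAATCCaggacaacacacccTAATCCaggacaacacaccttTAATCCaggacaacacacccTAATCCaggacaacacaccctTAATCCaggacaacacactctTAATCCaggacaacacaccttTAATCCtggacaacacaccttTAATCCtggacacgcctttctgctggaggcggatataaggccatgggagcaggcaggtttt
Tdpoz1, chr3:93676284-93676533, minus strand: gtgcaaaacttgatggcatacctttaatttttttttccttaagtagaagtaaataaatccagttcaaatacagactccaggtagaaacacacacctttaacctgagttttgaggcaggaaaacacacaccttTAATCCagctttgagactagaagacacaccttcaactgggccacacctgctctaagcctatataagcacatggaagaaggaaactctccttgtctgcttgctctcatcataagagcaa
Tdpoz8, chr3:93068573-93068822, plus strand: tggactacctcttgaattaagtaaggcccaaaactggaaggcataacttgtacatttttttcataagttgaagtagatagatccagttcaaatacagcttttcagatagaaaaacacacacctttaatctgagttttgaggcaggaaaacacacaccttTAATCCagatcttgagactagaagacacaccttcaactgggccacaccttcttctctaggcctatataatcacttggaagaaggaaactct
Zfp352 held 9 copies of TAATCC in a tandem repeat. The word was in 6.25% of the 32851 windows, and the Zfp352 window was the only one of them with 5 or more copies. Tdpoz1, Tdpoz8 (the first of its 2 windows) and Tdpoz9 held 1 copy each, inside a run of 17 bases, ACACACCTTTAATCCAG, that is identical in Zfp352. That run was in 5 windows in all (0.0152%), and the fifth belongs to Spopfm2, a relative of the Tdpoz genes.

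The windows of Usp17la, Usp17lb, Usp17lc and Usp17ld, and those of Spz1, Tdpoz4, Tdpoz5 and Tdpoz7, held no TAATCC. The longest run shared by Usp17la and Usp17ld had 76 bases, the most of any pair of these Usp17l windows, and is printed as the nearest case. The other Usp17l pairs shared runs of 29 to 65 bases at most.
Usp17la, chr7:104856830-104856905, plus strand: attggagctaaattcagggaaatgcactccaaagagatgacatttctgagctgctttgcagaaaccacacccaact
A match is a description of the letters in these windows, and a window without one says nothing about which factors act there.

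**Figure D1:**
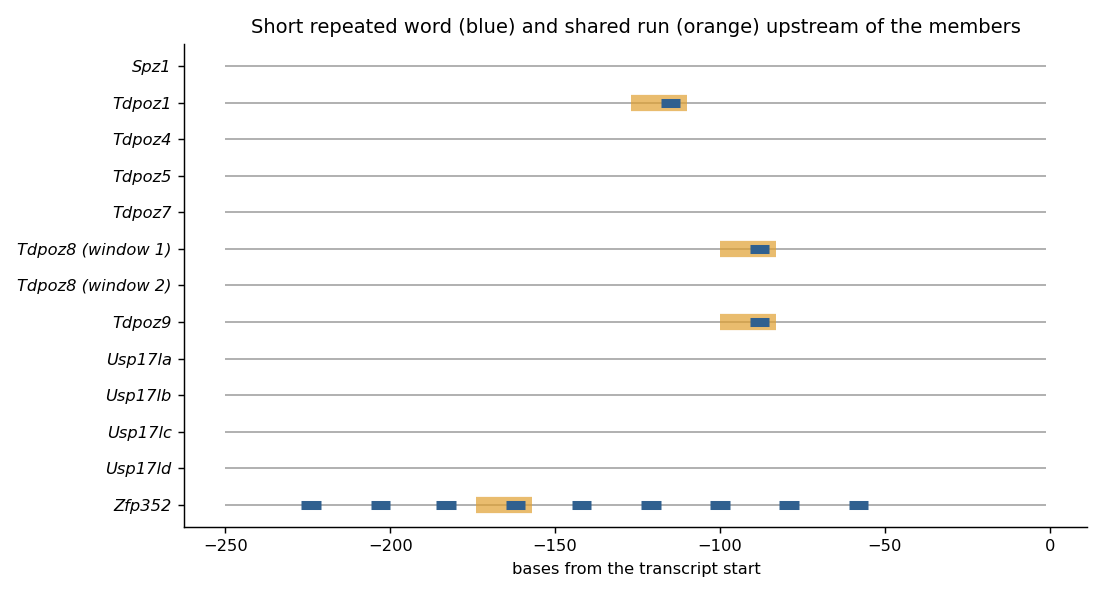
Positions of TAATCC on either strand (blue) and of the 17-base run shared with Zfp352 (orange) in the 250 bases before the start of each matched member; the horizontal axis is in bases from the transcript start and each grey line is 1 window. Zfp352 has 9 blue marks, Tdpoz1, Tdpoz8 (window 1) and Tdpoz9 have 1, and the other 9 windows have none.

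The members differ widely in how many reads support them. The Usp17l sum had 14 to 2942 counts per library and was at 0 in none of the 86. Spz1 had 0 to 30 counts per library, so its values rest on few reads throughout. Within Usp17l the counts were spread over all 5 copies: Usp17le took 29.8% of the family's counts, Usp17lc 24.3%, Usp17lb 22.9%, Usp17la 13.8% and Usp17ld 9.17%. Tcstv3 took 87.9% of the Tcstv counts and Tcstv1 12.1%. Of the 10 Tdpoz copies, Tdpoz3 (42.1%), Tdpoz4 (27.3%) and Tdpoz8 (24.0%) carried most of the sum, while Tdpoz5 had 3 counts and Tdpoz7 had 2 counts over all libraries. How reads that fit several copies were counted is not given in the sources used here, so the split between copies is uncertain and the sums are the firmer quantity.

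Library totals ran from 2483808 to 29471283 counts, with the siRNA table (3968442 to 4750020), TBLC2 (5036913 to 5238475) and some RNA immunoprecipitation inputs the shallowest. Levels are given as CPM, the count scaled to the library total, and differences come from edgeR's quasi-likelihood test within 1 table, with Benjamini-Hochberg adjustment over all features tested there. The targeted genes were read first. Virma was lower with siVirma than with siNC by a log2 change of -0.50 ± 0.085 (SE, adjusted p = 1.97e-06), and at 0 h of the course by -0.27 ± 0.061 (adjusted p = 0.000316). Mettl3 was not detectably lower in the libraries labelled siMettl3 (log2 change -0.18 ± 0.15, adjusted p = 0.770). Igf2bp3 was higher, not lower, in the libraries labelled siIgf2bp3 at 0 h (0.56 ± 0.079, adjusted p = 2.80e-07) and lower in them over 1 to 3 h (-0.58 ± 0.041, adjusted p = 1.45e-13). The siNC1 and siNC2 libraries at 0 h stood apart from those of the same arms at 1 to 3 h. Whether these libraries or the ones set against them carry the right labels was not tested, so results that use them hold for the libraries as labelled and are given with and without 0 h.

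All 6 members were lower in PrE-T than in EPI-T, where 32.7% of all features were called lower. Over the PrE-T libraries Zfp352 had 0 counts, Spz1 3 and Tcstv 2, so these passed the low-count filter only through EPI-T and TBLC. Tmem92 and Tdpoz were also too low in PrE-T to pass through that group. For all members but Usp17l the direction was thus nearly set on entering the test, so that share is no test of the 6 as a set. Zfp352 had 57 and 37 counts in the EPI-T libraries (2.28 and 1.73 CPM), 63 and 50 counts in TBLC (2.79 and 2.46 CPM) and 0 counts in both PrE-T libraries. Set against a floor of 3 counts over the PrE-T group, this is at least 38.1-fold lower than in EPI-T and at least 49.5-fold lower than in TBLC. The Usp17l sum stood at 118 and 119 CPM in EPI-T and at 6.45 and 5.09 CPM in PrE-T, a log2 change of -4.25 ± 0.10 (adjusted p = 5.28e-16). The groups were far apart for each of these members, and no PrE-T library reached a TBLC or EPI-T library.

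The other 4 members moved the same way at lower counts. Tdpoz had 11.7 and 9.46 CPM in EPI-T against 0.204 and 0.483 CPM in PrE-T (log2 change -4.84 ± 0.35). Tmem92 had 7.57 and 6.32 CPM in EPI-T, and its 2 PrE-T libraries held 1 and 18 counts (0.0339 and 0.669 CPM), the least even pair among the members. The log2 change was -4.22 ± 0.55, with -3.26 without PrE-T library 1 and -7.39 without PrE-T library 2. Spz1 had 49 counts over the EPI-T libraries and 3 over PrE-T, a ratio of 19.9 with an exact 95% interval of 6.42 to 99.7. The Tcstv sum had 41 counts against 2, both in PrE-T library 1, a ratio of 25.0 (6.48 to 213). Without PrE-T library 2 its log2 change was -3.51. Intervals on counts cover counting error only. In these bulk libraries fewer cells that express a gene and less RNA per cell cannot be told apart.

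Against TBLC, which are the starting cells, all 6 were also lower in PrE-T (33.8% of all features were called lower), with the same limit from the low-count filter. The log2 changes were -3.56 ± 0.10 for Usp17l, -4.22 for Tdpoz, -3.32 for Tmem92 and -4.33 for Tcstv. The size of some of these rests on 1 PrE-T library: Tmem92 was at -2.34 without library 1 and -6.48 without library 2, Tdpoz at -4.94 without library 2, and Tcstv at -3.46 without library 2, while without library 1 it has 0 counts left in PrE-T. Spz1 had 28 counts in TBLC against 3, a ratio of 12.3 (3.79 to 63.1), and its call was lost without TBLC library 2 (adjusted p = 0.0587) or without PrE-T library 1 (0.0595) or 2 (0.0945). No member was called lower in EPI-T than in TBLC, though both EPI-T libraries lay below both TBLC libraries in Zfp352 CPM. Usp17l was higher in EPI-T (84.2 and 86.9 CPM in TBLC), with a log2 change of 0.68 ± 0.079 and an adjusted p of 8.35e-07, and Tdpoz was higher by 0.62 ± 0.25 (adjusted p = 0.0348); 30.1% of all features were called higher. The Tdpoz call was lost with DESeq2 (adjusted p = 0.0581) and with library totals in place of TMM scaling (adjusted p = 0.148). It was also lost without EPI-T library 1 (adjusted p = 0.213) or TBLC library 1 (0.0629) or 2 (0.153). Zfp352 (-0.17 ± 0.52), Spz1 (0.89 ± 0.74), Tmem92 (0.91 ± 0.43) and Tcstv (0.04 ± 0.77) did not pass the test in this pair. Tmem92 passed with no filter on low counts (0.91, adjusted p = 0.00627) and with only the libraries compared in the fit (0.93, adjusted p = 0.00495).

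**Figure D2:**
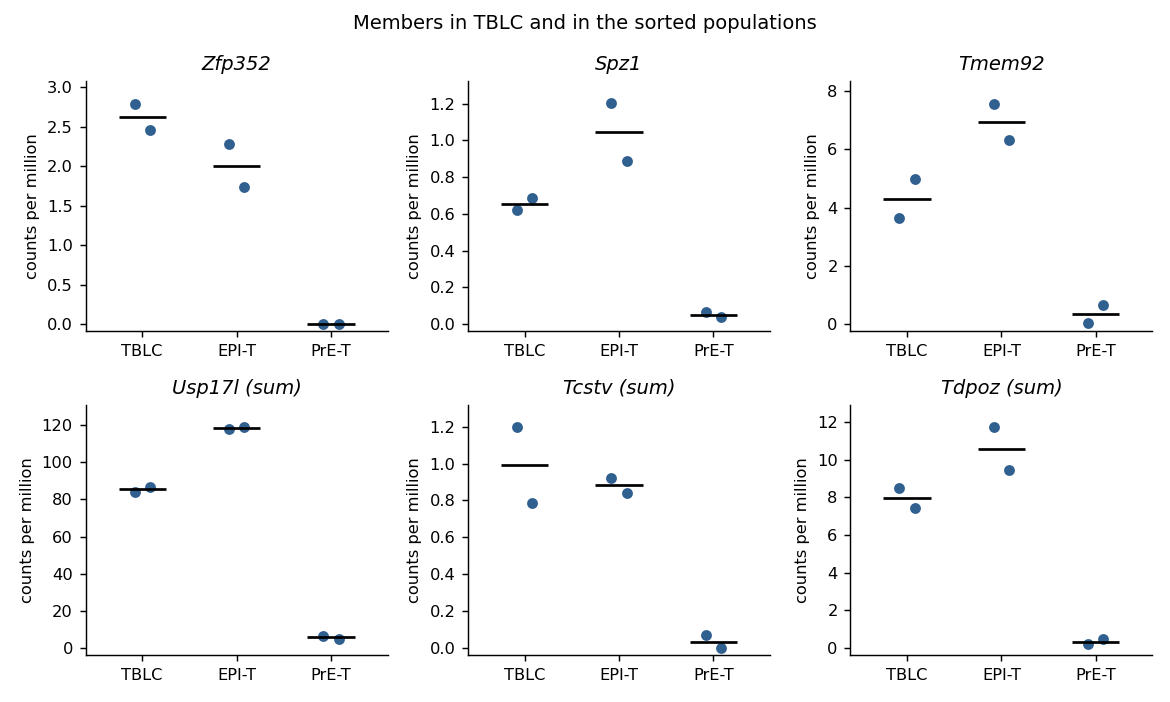
CPM of each member in the 2 libraries (points) and their mean (line) of TBLC, EPI-T and PrE-T, with linear axes from 0. Every PrE-T point lies below every TBLC and EPI-T point, and Usp17l is the member whose EPI-T libraries (118 and 119 CPM) lie clear above TBLC (84.2 and 86.9 CPM) with the tightest pairs.

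Other genes of the programme were taken from a list, which was chosen with earlier results of these data known. Of 18 other 2-cell features tested, PrE-T had 14 lower and 1 higher than EPI-T (32.7% and 35.8% of all features). Their median log2 change was -4.31 beside 0.03 over all features tested. The Zscan4 sum fell by 5.05 ± 0.077 on the log2 scale, and the eIF1A-like genes Eif1ad7 (-5.78 ± 0.22) and Eif1ad8 (-4.52 ± 0.21) fell with it. Against TBLC, 17 of the 18 were lower in PrE-T (33.8% of all features). Listed features too low in PrE-T could enter the test only through EPI-T or TBLC, so these PrE-T counts are no test of the list. How many entered that way was not counted. EPI-T had 7 higher and 2 lower than TBLC (30.1% and 34.8% of all features), with Zscan4 higher by 1.06 ± 0.061. The part higher in EPI-T was thus near that of all features.

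Upstream factors of the programme were read beside the members. Dppa4 (-1.05 ± 0.076) and Dppa2 (-0.87 ± 0.063) were lower in PrE-T than in EPI-T. The listed activators tested numbered 4 of 4 lower there (32.7% of all features) and 4 of 4 higher in EPI-T than in TBLC (30.1%). Dppa4 (0.39 ± 0.078) and Dppa2 (0.24 ± 0.064) were higher in PrE-T than in TBLC, where all 6 members were lower. Duxf3, the symbol under which Dux is counted, had 0 counts in both TBLC libraries, 6 and 4 in EPI-T and 7 and 8 in PrE-T, and was too low to test in any table. Of the 19 listed repressors, 15 were lower in PrE-T than in EPI-T (32.7% of all features), among them Mga (-1.31 ± 0.054) and Morc3 (-1.43 ± 0.062), and 15 were higher in EPI-T than in TBLC, led by Ehmt2 (1.69 ± 0.054; 30.1% of all features). In PrE-T against TBLC, 7 repressors were higher, 5 were lower and 7 did not pass (33.4% of all features higher and 33.8% lower). The part of these factors in the members' differences was not tested.

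Markers of other cells moved with the sort. The summed level of 8 primitive endoderm markers was 180 to 181 CPM in EPI-T, 1534 to 1585 CPM in TBLC and 12856 to 12988 CPM in PrE-T, with none of the 8 at 0 in any of these libraries, the direction the CD140+ label gives. The 8 include Pdgfra, the gene of CD140a, so for Pdgfra the sort itself may have set that direction. The 6 epiblast markers ran the other way, at 2728 to 2788 CPM in EPI-T and 662 to 683 CPM in PrE-T. The 8 fibroblast markers were 995 to 1038 CPM in TBLC, 36.6 to 39.5 CPM in EPI-T and 141 CPM in PrE-T. The 6 male germ cell markers, read because Spz1 is known from the testis, were 68.4 to 71.8 CPM in EPI-T and 19.3 to 21.1 CPM in PrE-T. The 6 trophectoderm markers summed to 36.1 to 47.6 CPM in EPI-T, 146 to 157 CPM in TBLC and 464 to 505 CPM in PrE-T. The part of these cell types in the members' differences was not tested.

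In unsorted cells, 5 of the 6 members were lower in diffTBLC than in TBLC at 0 h of the course, where 39.7% of all features were called lower. Tmem92 fell from 7.14 and 5.74 CPM to 1.56 and 2.07 CPM (log2 change -1.63 ± 0.19) and Tdpoz from 9.29 and 8.13 CPM to 2.39 and 2.70 CPM (-1.57 ± 0.15). Usp17l fell from 28.7 and 26.5 CPM to 10.4 and 12.0 CPM (-1.10 ± 0.080, adjusted p = 3.19e-22). Zfp352 fell from 2.16 and 2.22 CPM to 0.987 and 1.17 CPM (-0.81 ± 0.28, adjusted p = 0.00655). The groups did not overlap for these 4 members, nor for Tcstv. How many of all features were without overlap was not counted, so this is a description. Without diffTBLC library 1 the Zfp352 call was lost (adjusted p = 0.0635).

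Tcstv followed that pattern more weakly, and Spz1 departed from it. Tcstv fell from 5.29 and 4.21 CPM to 3.33 and 2.91 CPM (-0.40 ± 0.17, adjusted p = 0.0245), a call that DESeq2 did not make (adjusted p = 0.0879) and that was lost without TBLC library 1 (0.337) or diffTBLC library 2 (0.160). Spz1 had 11 and 6 counts in TBLC and 13 and 7 counts in diffTBLC, with a log2 change of 0.40 ± 0.50 that did not pass. Of the 18 other 2-cell features, 14 were lower and 1 was higher (39.7% and 42.7% of all features). Zscan4 was at -0.95 ± 0.040 and the chitinase gene Chit1 at -2.80 ± 0.20. Dppa4 (1.20 ± 0.033) and Dppa2 (1.17 ± 0.039) were higher in diffTBLC. The primitive endoderm markers summed to 386 to 393 CPM in TBLC and 3267 to 3286 CPM in diffTBLC, the fibroblast markers to 371 to 384 CPM and 151 to 155 CPM, and the trophectoderm markers to 58.5 to 60.2 CPM and 151 to 156 CPM. Their part was not tested. Averaged over 1 to 3 h of actinomycin D, a comparison added after the data were seen, the same 5 members were lower, from -0.44 ± 0.10 for Tcstv to -1.93 ± 0.12 for Tmem92 (45.7% of features called lower).

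After 8 h in SLM no member differed from TBLC_Ctrl at 0 h, where 1.25% of all features were called. Usp17l stood at 122 CPM in both TBLC_Ctrl libraries and at 126 and 118 CPM in TBLC_PlaB- (log2 change 0.00 ± 0.036). Zfp352 had 7.44 and 6.06 CPM against 6.94 and 5.99 CPM, and Tmem92 14.1 and 14.5 CPM against 14.0 and 13.9 CPM. No member passed at an unadjusted p under 0.05 in edgeR either, and none passed with DESeq2. Averaged over 1 to 3 h of actinomycin D, Tcstv (-0.32 ± 0.047, adjusted p = 2.51e-08), Tmem92 (-0.18 ± 0.058) and Usp17l (-0.16 ± 0.023) were lower in TBLC_PlaB- (7.83% of features called lower), while Zfp352, Spz1 and Tdpoz did not pass.

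Under siRNA in diffTBLC, 1 of the 5 members tested passed with siVirma, where 3.48% of features were called higher. Usp17l had 36.1 and 39.6 CPM with siNC and 52.2 and 48.3 CPM with siVirma, a log2 change of 0.41 ± 0.13 (adjusted p = 0.0307). The groups did not overlap, but DESeq2 did not make the call (adjusted p = 0.300) and it was lost on leaving out any 1 of the 4 libraries (adjusted p = 0.0655 to 0.253). Zscan4 was higher by 0.37 ± 0.072 (adjusted p = 3.44e-05). All 8 primitive endoderm markers were lower with siVirma (median log2 change -0.90, with 3.64% of all features called lower). Their sum was 5319 to 5452 CPM in siNC and 3285 to 3286 CPM in siVirma, and their part was not tested. Tcstv (12 and 11 counts against 12 and 21), Tdpoz (26 and 22 against 25 and 29), Tmem92 (14 and 18 against 12 and 20) and Zfp352 (12 and 7 against 8 and 2) did not pass, and Spz1, with 2 and 3 counts against 0 and 2, was too low to test. In the libraries labelled siMettl3, 0 of 5 members passed (0.866% of features called) with either tool; the largest difference was Tdpoz, with 39 and 33 counts against 26 and 22 (0.63 ± 0.33). Of the 8 primitive endoderm markers, 6 were lower there (0.453% of all features called lower), with a sum of 4582 to 4609 CPM.

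The siVirma libraries gave another picture at 0 h of the actinomycin D course, which has its own siNC1 libraries. Sample titles name siVirma in each table and do not say whether the siRNA was the same. Here 3 of 6 members were lower with siVirma (27.2% of features called lower): Tcstv, from 6.25 and 6.65 CPM to 2.45 and 2.61 CPM (log2 change -1.54 ± 0.16, adjusted p = 8.36e-10), Tmem92, from 2.70 and 2.09 CPM to 1.53 and 1.58 CPM (-0.83 ± 0.26), and Zfp352, from 1.07 and 1.17 CPM to 0.436 and 0.969 CPM (-0.88 ± 0.38, adjusted p = 0.0442). Usp17l stood at 9.01 and 9.45 CPM in siNC1 and at 8.02 and 9.75 CPM in siVirma, and the groups overlapped. The Zfp352 call was lost without siNC1 library 1 (adjusted p = 0.0853) or 2 (0.145) or siVirma library 1 (0.437), the Tmem92 call without siNC1 library 1 (0.114), and Usp17l was called lower without siVirma library 2 (0.0248). DESeq2 called 1 of the 3. Without siVirma library 2, Zfp352 was at -1.53 (adjusted p = 0.0105). Averaged over 1 to 3 h, Usp17l (-1.08 ± 0.072), Tdpoz (-1.53 ± 0.15), Zfp352 (-1.57 ± 0.24), Tcstv (-0.67 ± 0.10) and Tmem92 (-0.49 ± 0.18) were all lower with siVirma, and Spz1 did not pass (36.0% of features called lower). All 8 primitive endoderm markers were lower with siVirma at 0 h as well (median log2 change -1.06). Their sum was 1747 to 1841 CPM in siNC1 and 1171 to 1178 CPM in siVirma at 0 h, and 2310 to 3115 CPM and 965 to 1149 CPM at 1 to 3 h; their part was not tested.

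The control libraries at 0 h differed from the later ones of their arms. In siNC1, Usp17l stood at 9.01 and 9.45 CPM at 0 h and at 11.2 to 14.0 CPM in the 6 later libraries. In siNC2 it stood at 8.46 and 7.94 CPM at 0 h and at 11.8 to 14.7 CPM later. Tcstv ran the other way, from 6.71 and 6.39 CPM in siNC2 at 0 h to 2.66 to 4.65 CPM later. The share of Usp17l counts taken by Usp17le moved as well, from 17.7% (exact 95% interval 13.6 to 22.5) at 0 h to 29.1% (25.1 to 33.2) at 1 h in siNC1, and from 16.8% (12.6 to 21.8) to 32.8% (28.8 to 37.1) in siNC2. In TBLC of the first course that share was 34.2% at 0 h and 35.2% at 1 h. The 2 arms moved in the targeted genes as well: Igf2bp3 was at 17.1 to 19.8 CPM in siNC1 at 0 h and at 27.4 to 39.7 CPM later.

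**Figure D3:**
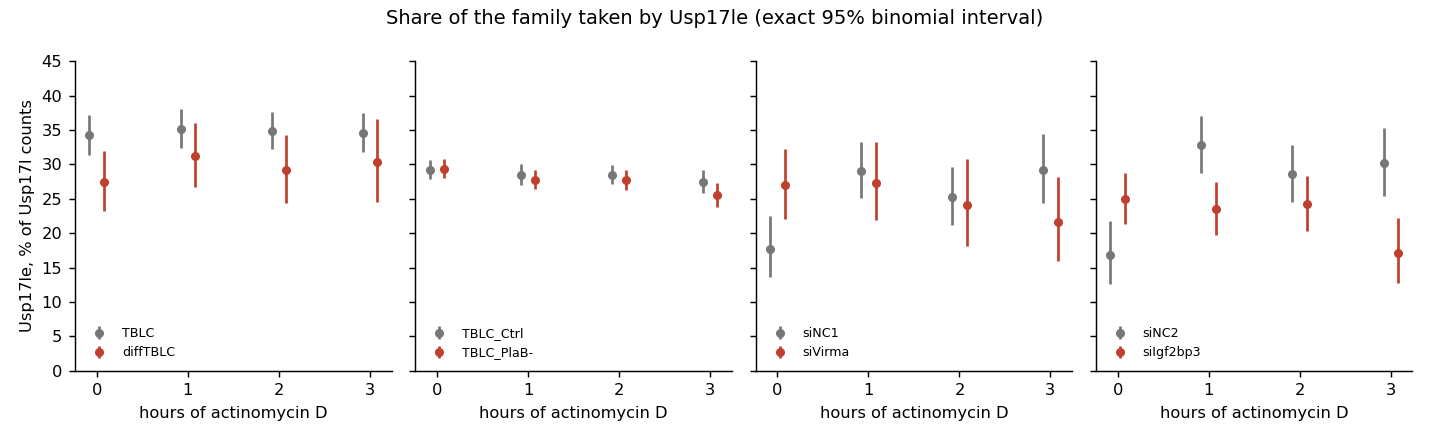
Share of Usp17l counts assigned to Usp17le, in percent of the family's counts over the 2 libraries of a group, by hours of actinomycin D in the 4 courses; bars are exact 95% binomial intervals. The siNC1 and siNC2 points at 0 h (17.7% and 16.8%) lie below the later points of their arms, as does the siIgf2bp3 point at 3 h below the earlier points of its arm.

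In the libraries labelled siIgf2bp3, Usp17l (0.68 ± 0.11) and Tdpoz (0.76 ± 0.19) were higher and Tcstv (-0.52 ± 0.14) was lower than in siNC2 at 0 h (65.7% of features called in either direction). Without the 0 h libraries these calls turned or ended: over 1 to 3 h Usp17l was lower by -0.17 ± 0.059, Tcstv was higher by 0.80 ± 0.092 and Tmem92 was higher by 0.48 ± 0.16, and Tdpoz (-0.13 ± 0.11) did not pass (70.0% called). The libraries labelled siIgf2bp3 were themselves uneven: Usp17l stood at 14.1 and 13.7 CPM at 0 h, 12.0 and 12.8 CPM at 2 h and 7.25 and 7.43 CPM at 3 h, and Tdpoz at 4.92 and 3.98 CPM at 0 h and 1.56 and 2.07 CPM at 3 h. Zfp352 did not pass in either reading. Of the 8 primitive endoderm markers, 3 were higher and 2 lower at 0 h (41.1% and 24.6% of all features). The 8 summed to 1918 to 1939 CPM in siNC2 and 2305 to 2335 CPM in the libraries labelled siIgf2bp3 at 0 h. Their part was not tested.

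**Figure D4:**
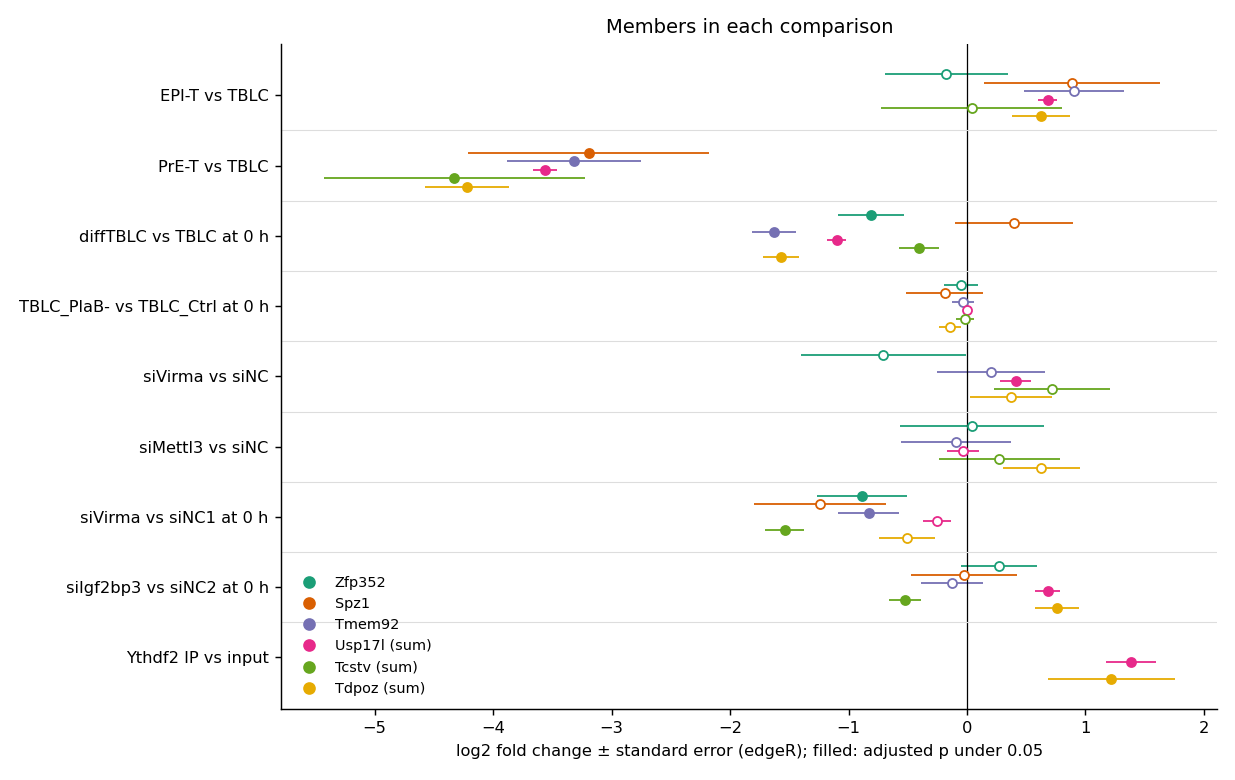
Log2 fold change of each member in 9 comparisons with its standard error from edgeR; filled points have an adjusted p under 0.05 and members too low to test are left out, as is Zfp352 in PrE-T, where it had 0 counts. The members lie far left in PrE-T against TBLC, left in diffTBLC except Spz1, and close to 0 in TBLC_PlaB-.

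Actinomycin D courses show how a transcript's share of the remaining RNA changes once new synthesis stops; a positive slope means slower loss than the library's other RNA, not synthesis. In TBLC the Usp17l slope was 0.08 ± 0.028 log2 units per hour and in diffTBLC -0.11 ± 0.037, a difference of -0.19 ± 0.047 (adjusted p = 0.0186; 5.68% of features called lower), so Usp17l was lost faster relative to the library in diffTBLC. That was the 1 member of 6 that passed. When libraries were scaled to cytosolic ribosomal protein genes the difference was of the same size (-0.18 ± 0.069) but no longer passed (adjusted p = 0.292), and without the 0 h libraries it was -0.14 ± 0.069 (adjusted p = 0.110). The call was also lost without TBLC library 2 at 0 h (adjusted p = 0.0518) or diffTBLC library 1 (0.169) or 2 (0.260, where the difference was -0.10) at 3 h. In the TBLC_PlaB- course none of 6 members passed (0.412% of features called); the Usp17l slope difference, -0.07 ± 0.024, had an unadjusted p of 0.00641, and no other member was under 0.05. With DESeq2 none of them passed either.

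The 2 siRNA courses gave more calls. Against siNC1, siVirma had lower slopes for Usp17l (difference -0.33 ± 0.062, adjusted p = 0.0341) and Tdpoz (-0.44 ± 0.12, adjusted p = 0.0401; 5.92% of features called lower), calls that were both kept on leaving out 1 library in 4 of 16 cases. Against siNC2, the libraries labelled siIgf2bp3 had lower slopes for Usp17l (-0.31 ± 0.088) and Tdpoz (-0.39 ± 0.11) and higher slopes for Tmem92 (0.40 ± 0.15) and Tcstv (0.55 ± 0.14; 52.4% called in either direction). Without the 0 h libraries no feature was called in either fit, while all 6 differences kept their sign. They were then -0.20 for Usp17l and -0.34 for Tdpoz with siVirma, and -0.18 for Usp17l, -0.38 for Tdpoz, 0.55 for Tmem92 and 0.30 for Tcstv in the libraries labelled siIgf2bp3. Ribosomal protein scaling moved the siIgf2bp3 members together, by a median of -0.60, so Tmem92 came to -0.21, Tcstv to -0.10, Usp17l to -0.88 and Tdpoz to -0.97. In the siVirma fit it moved them by a median of -0.32, with Usp17l at -0.60 and Tdpoz at -0.72, and neither passed (adjusted p = 0.124). The Tmem92 call was also lost without siNC2 library 2 at 0 h (adjusted p = 0.138) or 3 h (0.0902), or, of the libraries labelled siIgf2bp3, without library 1 at 0 h (0.0581) or library 1 (0.0533) or 2 (0.0918) at 3 h.

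**Figure D5:**
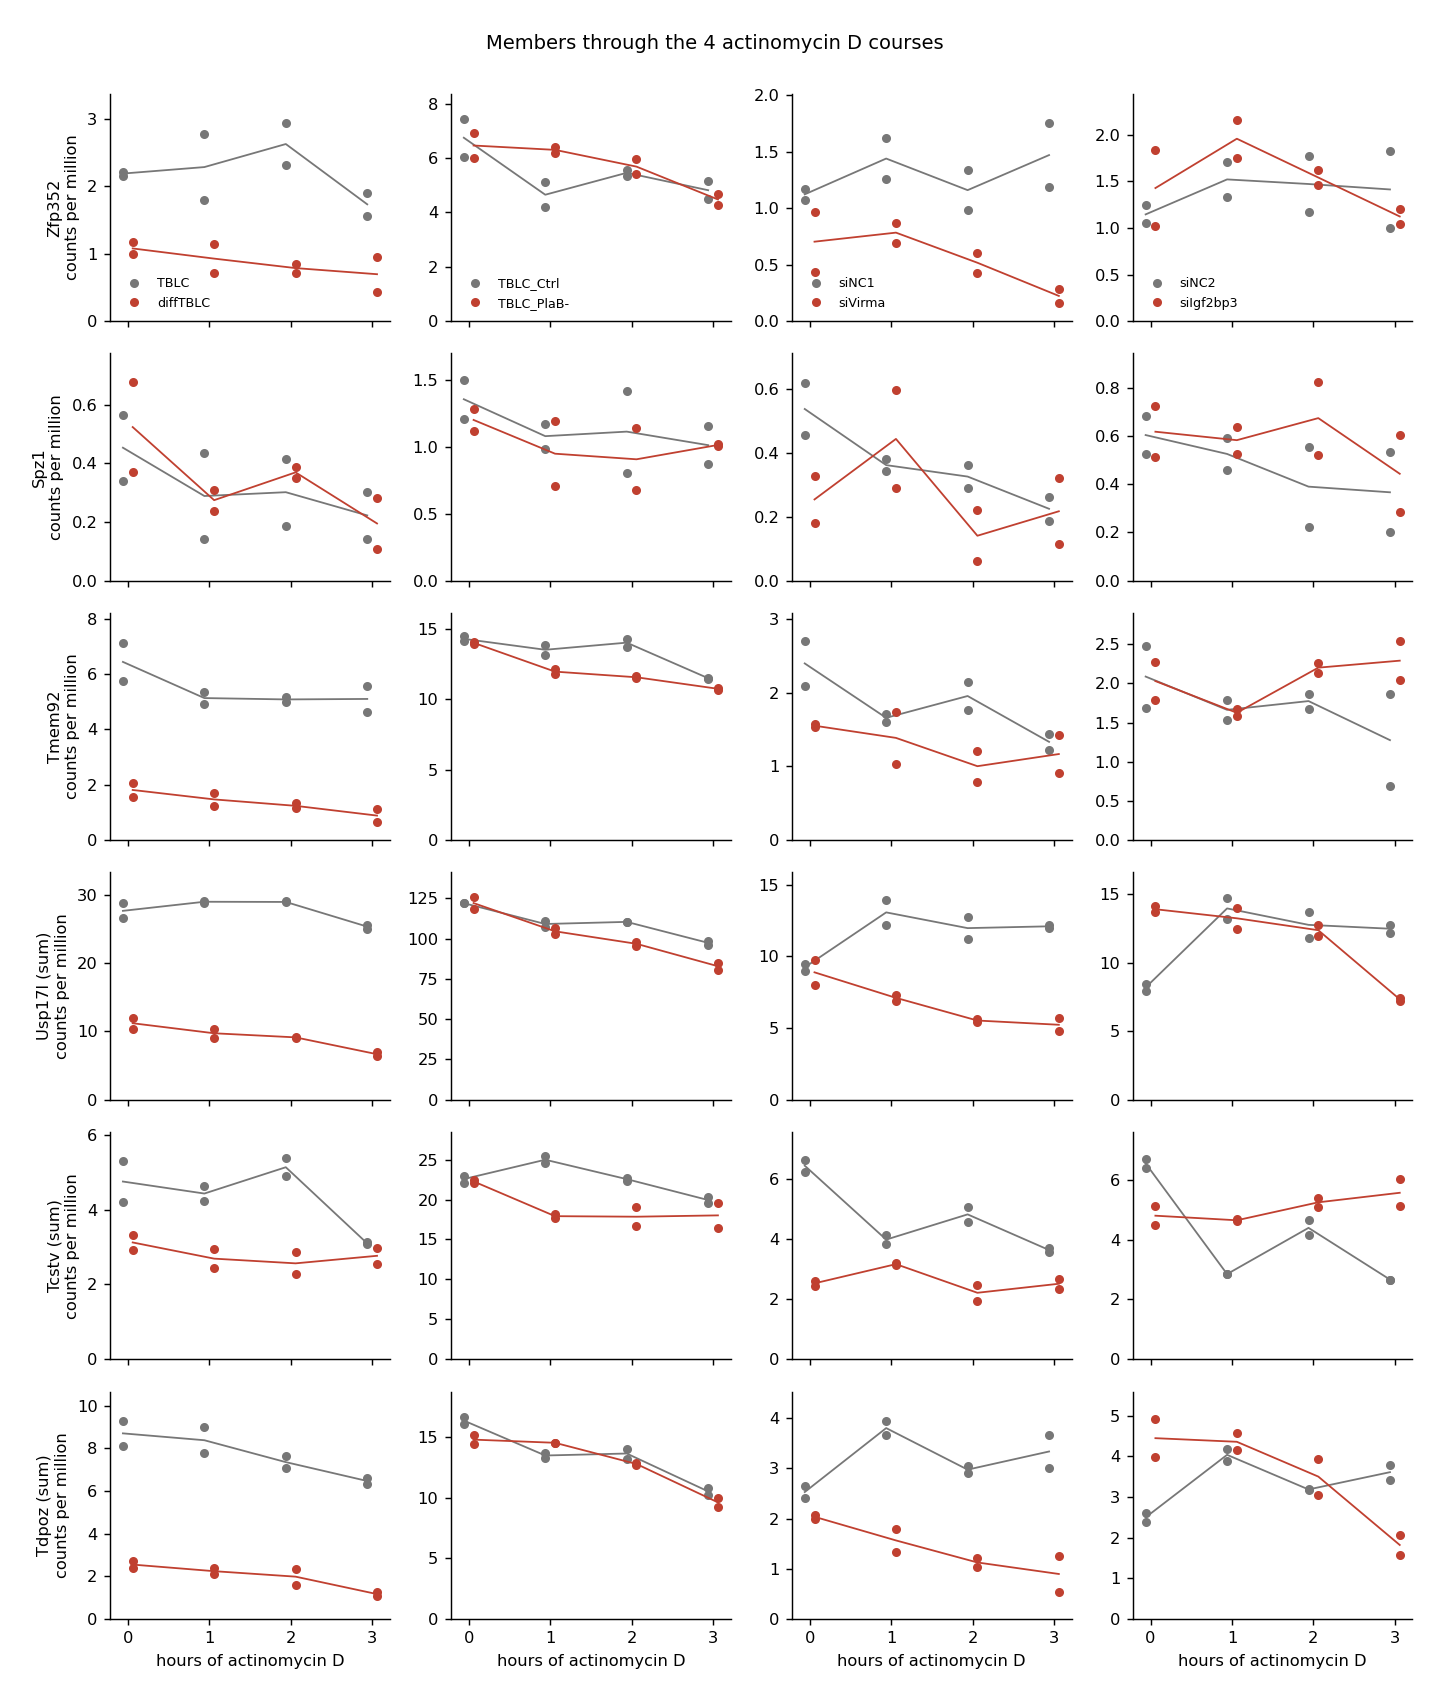
CPM of each member (rows) against hours of actinomycin D in the 4 courses (columns), with both libraries as points and lines through the means; grey is the control arm, red the arm named beside it, and each vertical axis starts at 0. Usp17l in siNC1 and siNC2 is lower at 0 h (9.01 and 9.45, 8.46 and 7.94 CPM) than at any later hour of its arm.

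RNA immunoprecipitation from diffTBLC reached few member reads. With Ythdf2, Usp17l had 5.64 and 10.2 CPM in the inputs (14 and 30 counts) and 21.0 and 21.9 CPM in the captured RNA (229 and 277 counts), a log2 change of 1.38 ± 0.21 (adjusted p = 2.20e-08; 40.2% of features called higher). Tdpoz had 2 and 4 counts in the inputs and 29 and 33 captured (1.22 ± 0.54, adjusted p = 0.0345), a call that DESeq2 did not make (adjusted p = 0.217) and that was lost without input library 1 (0.243) or 2 (0.0912). Tdpoz passed the low-count filter only through the captured RNA, so its direction was nearly set on entering the test. Zscan4 was higher by 1.73 ± 0.12. Zfp352 had 0 counts in both inputs and 5 and 18 captured (0.458 and 1.42 CPM), and was too low to test. Pooled over both captured libraries and set against the floor of 3 counts, its ratio was 1.76. That ratio leaves out counting error in the captured RNA and rests mostly on captured library 2. Spz1, with 0 counts in both inputs and 6 and 2 captured, had a ratio of 0.613 against the same floor. Tmem92 had 0 and 1 counts in the inputs and 4 and 9 captured, a ratio of 2.99 with an exact interval of 0.449 to 127. With Igf2bp3, Usp17l was the 1 member that could be tested, at 10.3 CPM in both inputs and 9.20 and 9.13 CPM captured (0.02 ± 0.18; 69.8% of features called); Tcstv had 9 counts in the inputs and 3 captured, a ratio of 6.63 with an exact interval of 1.66 to 38.1.

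TBLC in 2MYCP were sequenced in 4 tables, and the members' levels differed widely between them; these tables were not tested against each other, and culture, library kit and depth cannot be told apart. Tcstv had a mean of 0.992 CPM beside the sorted cells, 4.75 CPM in TBLC at 0 h, 7.41 CPM in TBLC2 and 22.6 CPM in TBLC_Ctrl at 0 h. Usp17l followed another order, with 27.6 CPM in TBLC at 0 h, 73.8 CPM in TBLC2, 85.5 CPM beside the sorted cells and 122 CPM in TBLC_Ctrl at 0 h. Zfp352 had 2.19 ± 0.039 CPM (SD, n = 2) in TBLC at 0 h and 2.63 ± 0.23 CPM beside the sorted cells, and 6.61 ± 0.64 CPM in TBLC2 and 6.75 ± 0.98 CPM in TBLC_Ctrl. The libraries of TBLC2 and TBLC_Ctrl overlapped, and those of TBLC at 0 h (2.16 and 2.22 CPM) lay below those beside the sorted cells (2.79 and 2.46 CPM).

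Likeness was measured over 38 groups of 6 tables as Pearson's r of group means on the log2(CPM + 1) scale, centred within each table, among 11912 features; groups of a table share their libraries' making, and these values are descriptions. Usp17l was most like Zscan4 (r = 0.99), then Tdpoz (0.97) and Eif1ad3 (0.97). Tdpoz was most like Usp17l, Pramel19 (0.96) and Cobl (0.96), and Zfp352 was most like Cobl (0.95), Tdpoz (0.93) and Eif1ad3 (0.92). Tmem92 was most like B4galnt4 (0.95), Pramel31 (0.93) and Slc12a8 (0.93). Tcstv stood furthest from the other members, with r = 0.56 to Usp17l, 0.57 to Zfp352 and to Tdpoz and 0.705 to Tmem92, beside 0.49 to Zscan4. It was most like AF067061 (0.90), BC147527 (0.88) and Gm21761 (0.82). Adding 1 to CPM shrinks changes at low levels, such as those of Tcstv in the sorted-cell table. Spz1 did not pass the filter on low counts in all 6 tables and was left out.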

How the data were processed

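Total RNA was extracted with TRIzol and made into libraries with 1 of 2 stranded kits, per the labels' protocols, which do not say which library had which kit. The authors deposited raw read counts per gene symbol in 9 tables. The submitters' processing notes name FastQC 0.12.1, Trim Galore, STAR 2.7.11b, Subread, DESeq2 and the build mm39, with no settings. Columns headed TBLC_S were read as TBLC_PlaB-, the 1 arm with no columns of its own name. Copies of Usp17l, Tcstv, Tdpoz and Zscan4 were summed to 1 row per family. Each table was fitted in edgeR 4.0.16 (R 4.3.3) with TMM scaling, filterByExpr, the quasi-likelihood test and Benjamini-Hochberg adjustment over all features, called at 0.05; the fits were checked on simulated counts. Zfp352, Tmem92 and Tcstv passed the filter in 6 of 8 tested tables, Usp17l in 8, Tdpoz in 7 and Spz1 in 5. DESeq2 1.42.0 was an alternative. Alternatives were other scalings, no filter, each copy as its own row, a replicate block, other time points and leaving out each library. Genes named were all members, Zscan4, the upstream factors and targets, up to 3 per list by lowest adjusted p, and the 3 features most like each member. Members and lists were chosen with earlier results of these data known. m6A libraries were not used.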

Additional observations from a re-analysis of the deposited data

Results flagged for a closer look

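Several differences between arms met the criterion for a contrast that itself differs between groups. Slopes under actinomycin D differed by a tested interaction for Usp17l between diffTBLC and TBLC (-0.19 log2 per hour, edgeR adjusted p = 0.0186), for Usp17l (-0.33, adjusted p = 0.0341) and Tdpoz (-0.44, adjusted p = 0.0401) between siVirma and siNC1, and for Tmem92 (0.40), Usp17l (-0.31), Tcstv (0.55) and Tdpoz (-0.39) between the libraries labelled siIgf2bp3 and siNC2. Without the 0 h libraries none of the 7 passed and all 7 kept their sign: Usp17l was at -0.14 in diffTBLC, Usp17l at -0.20 and Tdpoz at -0.34 with siVirma, and Tmem92 at 0.55, Usp17l at -0.18, Tcstv at 0.30 and Tdpoz at -0.38 in the libraries labelled siIgf2bp3.

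The log2 change of Tcstv with siVirma was 0.72 in the siRNA table and -1.54 at 0 h of the course, and that of Tdpoz was 0.37 and -0.51. Of these, only the Tcstv change at 0 h passed the edgeR test. In CPM every siVirma library lay on 1 side of every control library in both tables, and on opposite sides in the 2 tables. With 2 libraries per group such a separation is a description and no test. The difference between the tables was not tested, and table, kit and control libraries cannot be told apart.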

How the results depend on the processing

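The calls in PrE-T (6 of 6 members lower against EPI-T, and 5 to 6 against TBLC) kept their direction under every alternative tried, and so did those of diffTBLC at 0 h (4 to 5 of 6 on leaving out 1 library). Each range that follows is over leaving out 1 library in turn. EPI-T against TBLC had 2 members called, and 1 with library totals, 1 with DESeq2 and 1 to 2 in the range. TBLC_PlaB- at 0 h had 176 features called, 73 with DESeq2, 93 with only the libraries compared, and a range of 69 to 203; averaged over 1 to 3 h it had 2903, with 3 members called in place of 0 and Usp17l at -0.16. siVirma against siNC had 863 features and 1 member called, 279 and 0 with DESeq2, and ranges of 502 to 606 and 0 to 0. siMettl3 had 105 features, 46 with DESeq2 and a range of 41 to 48. siVirma against siNC1 at 0 h had 3 members called, 1 with DESeq2, 5 with no filter, 5 averaged over 1 to 3 h, and a range of 1 to 4. For siIgf2bp3 at 0 h, averaging over 1 to 3 h turned Tmem92 to 0.48, Usp17l to -0.17, Tcstv to 0.80 and Tdpoz to -0.13. Ythdf2 capture had 2 members called, 1 with DESeq2 and 1 on leaving out any library.

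Slope differences moved most. Between diffTBLC and TBLC, 1193 features and 1 member were called, 111 and 0 with ribosomal protein scaling, 4724 and 0 without 0 h, and 4019 features at 3 h against 0 h (ranges 634 to 1570 and 0 to 1). For TBLC_PlaB-, 58 features and 0 members were called, 27 with library totals, 193 with DESeq2, 110 with no filter, 14 with ribosomal protein scaling, 3132 and 1 member without 0 h (Tcstv, turned to 0.21), and 979 and 1 member at 3 h against 0 h (range 8 to 180). For siVirma, 1204 features and 2 members were called, 1 and 0 with library totals, 3172 features with DESeq2, 6 and 0 with no filter, 0 and 0 with ribosomal protein scaling or without 0 h, and 8011 and 4 at 3 h against 0 h (ranges 0 to 5113 and 0 to 2). For siIgf2bp3, 7107 features and 4 members were called, 11236 with ribosomal protein scaling, which turned Tmem92 to -0.21 and Tcstv to -0.10, and 0 features and 0 members without 0 h. Ribosomal protein scaling shifted the members of that fit by a median of -0.60 and library totals shifted PrE-T against TBLC by -0.31 (log2). The causes were not tested.

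The replicate numbers share no stated batch. Deviations of same-numbered libraries correlated by over 0.1 in 8 of 28 group pairs of the siVirma course (at most 0.28) and 6 of 28 of the siIgf2bp3 course (at most 0.33), and in no pair of any other table. With the replicate block the siVirma slope count was 313 features and 1 member (Tdpoz adjusted p = 0.0516), and the block changed no other call of a member. Depth limits Spz1 throughout, and in the immunoprecipitations every member but Usp17l and, with Ythdf2, Tdpoz. With 1 library left in a group, its spread was taken from the other groups.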
